A study of Homo sapiens with 4 samples.

Results

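Members of the ID and SMAD feedback inhibitor group were followed through 4 populations of a hematopoietic differentiation. The group holds 10 genes, namely ID1, ID2, ID3, ID4, SMAD6, SMAD7, BAMBI, PMEPA1, SKIL and TGIF1, out of 58274 gene identifiers in the expression table. They were picked by gene symbol, and each symbol matched 1 row. RNA was sequenced from undifferentiated BC1, an induced pluripotent line of human origin, and from 3 populations sorted after induction of that line. APLNR+ mesoderm cells were collected on day 2. The hemogenic endothelial progenitors (HEPs), sorted as CD31+CD34+, came from day 5, and the hematopoietic progenitors (HPCs), sorted as CD43+, from day 8. By the labels, the cultures received 40 ng/ml activin A and 50 ng/ml BMP4 for 2 days and then 40 ng/ml VEGF and 50 ng/ml bFGF, whereas the methods of the study give the doses of activin A and BMP4 the other way round. APLNR+ cells were thus taken at the end of the BMP4 and activin A step, HEPs 3 days after it and HPCs 6 days after it. No genetic change is named in the labels.

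Each population had 1 library, so no difference below has a replicate check, no test was possible and no p-value is given. Values are FPKM (fragments scaled to a transcript length of a kilobase and to 1000000 mapped fragments). As a level per length, FPKM can be compared between genes of a library. Between libraries it also depends on the makeup of the RNA, and summed FPKM ran from 607230 in HEPs to 659857 in HPCs. The depth recovered from the values was between 19700000 and 23600000 mapped fragments, a ratio of 1.20. A fold between libraries is given with a 95% interval that covers counting error only, and not the spread between cultures or sorts. A gene is said to rise or fall when its log2(FPKM + 1) differed by at least 1, and otherwise its values are given without such a verb. The sorting markers were expressed in the populations sorted by them. APLNR reached 1073 FPKM in APLNR+ cells, and PECAM1 (CD31) and CD34 reached 93.1 and 102 FPKM in HEPs. SPN (CD43) reached 92.4 FPKM in HPCs. The markers overlapped, with APLNR at 209 FPKM and SPN at 11.7 FPKM in HEPs. In HPCs PECAM1 was higher than in HEPs, at 126 FPKM, and CD34 was at 42.6 FPKM. PTPRC, the gene of CD45, was at most at 0.0349 FPKM in every library. In such sorted bulk samples, fewer cells of a kind and less RNA per cell cannot be told apart.

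Ligands of the TGF-beta family act through receptor kinases that phosphorylate mediator SMADs, with SMAD1, SMAD5 and SMAD9 serving BMP ligands and SMAD2 and SMAD3 serving activin, Nodal and TGF-beta. The ID genes are classical direct targets of BMP signaling. Their products have a helix-loop-helix domain but no basic region, so they bind E proteins and keep them from DNA. SMAD6 and SMAD7 are inhibitory SMADs that block receptors and mediator SMADs, BAMBI is a membrane pseudoreceptor without a kinase domain, PMEPA1 is a membrane protein that sequesters SMAD2 and SMAD3, and SKIL and TGIF1 are nuclear corepressors of SMAD complexes. Many of these inhibitors are themselves induced by the pathway they restrain. In blood formation, BMP signaling acts in mesoderm and endothelium, and E proteins are the partners of TAL1.

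The promoter windows of the members were read from RefSeq on GRCh38.p14, from 250 bases before to 50 bases after each annotated start. All 10 genes had a window, 7 of them a single window, and 21 windows were found in all. Of the bases before the start, 5 are shown, for SMAD6 and BAMBI, which had the largest rises in APLNR+ cells, for ID1 and ID3, which had the largest falls in HPCs, and for ID2, which was the most abundant ID gene there. Capitals mark the words that were searched on both strands.
SMAD6, chr15:66701986-66702235, plus strand: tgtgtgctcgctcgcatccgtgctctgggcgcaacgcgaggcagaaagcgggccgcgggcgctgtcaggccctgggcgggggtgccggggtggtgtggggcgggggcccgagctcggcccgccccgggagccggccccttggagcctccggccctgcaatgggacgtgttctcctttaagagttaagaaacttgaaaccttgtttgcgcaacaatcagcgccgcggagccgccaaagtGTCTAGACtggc
BAMBI, chr10:28677271-28677520, plus strand: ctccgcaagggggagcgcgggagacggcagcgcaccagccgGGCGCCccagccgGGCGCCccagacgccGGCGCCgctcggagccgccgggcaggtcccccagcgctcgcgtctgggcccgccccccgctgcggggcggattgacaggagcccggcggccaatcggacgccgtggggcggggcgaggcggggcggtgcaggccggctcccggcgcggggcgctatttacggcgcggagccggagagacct
ID1, chr20:31605039-31605288, plus strand: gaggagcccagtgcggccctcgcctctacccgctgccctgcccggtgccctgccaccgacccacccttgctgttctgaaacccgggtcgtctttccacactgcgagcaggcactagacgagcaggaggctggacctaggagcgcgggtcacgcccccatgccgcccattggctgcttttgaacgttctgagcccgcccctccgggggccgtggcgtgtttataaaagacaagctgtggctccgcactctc
ID2, chr2:8681806-8682055, plus strand: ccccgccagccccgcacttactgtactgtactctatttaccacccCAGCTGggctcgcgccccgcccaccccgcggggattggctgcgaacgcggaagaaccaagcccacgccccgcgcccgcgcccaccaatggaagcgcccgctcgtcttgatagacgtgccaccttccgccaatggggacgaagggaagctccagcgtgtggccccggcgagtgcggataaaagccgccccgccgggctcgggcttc
ID3, chr1:23559502-23559751, minus strand: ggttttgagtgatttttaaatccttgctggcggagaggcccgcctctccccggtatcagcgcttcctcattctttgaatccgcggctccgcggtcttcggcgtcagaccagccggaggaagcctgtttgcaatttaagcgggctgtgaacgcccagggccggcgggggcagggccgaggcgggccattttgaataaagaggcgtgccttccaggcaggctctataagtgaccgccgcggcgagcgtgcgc

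The palindrome GTCTAGAC, a SMAD binding element, was found in the window of SMAD6, where it begins 12 bases before the annotated start, and in no window of the other 9 members. Of all 35116 promoter windows, 71 (0.202%) held it. GGCGCC, a GC-rich word bound by SMAD1 and SMAD5, occurred 3 times in the window of BAMBI and 1 time each in a window of PMEPA1 and of SKIL, against 19.2% of all windows. BAMBI was the richest of the 5 sequences in G and C, at 81.2%, and ID3 the poorest, at 62.0%. CAGACA, a SMAD element with its flanks, lay in windows of PMEPA1 and TGIF1 and in 16.9% of all windows. The E box CAGCTG lay in windows of ID2, ID4 and TGIF1 and in 17.9% of all windows, and the E box CACCTG in windows of SMAD7 and PMEPA1 and in 20.6%. CACGTG, searched for comparison, was in no window of a member and in 7.26% of all windows. These shares are of single windows, whereas TGIF1, PMEPA1 and SMAD7 had 7, 4 and 3 windows in which a word could lie. The windows of ID1 and ID3 held none of these words, which says nothing about sequence outside them.

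ID1, ID2 and ID3 were each highest in HEPs and were far lower in HPCs, and ID4 stayed low throughout. ID1 (chromosome 20, 31605283 to 31606515, plus strand) had 108 FPKM in undifferentiated BC1 and 49.5 FPKM in APLNR+ cells, against 636 FPKM in HEPs and 18.7 FPKM in HPCs. It was thus lower after 2 days of BMP4 than in undifferentiated cells, by 2.18-fold (2.01 to 2.36). It then rose 12.9-fold (12.0 to 13.8) to become the gene of rank 128 by FPKM in HEPs. ID1 fell 34.1-fold (30.6 to 38.1) from HEPs to HPCs, and 20 of the 17137 genes with at least 1 FPKM in some library had a larger fall at that step.

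ID3 (chromosome 1, 23557918 to 23559794, minus strand) was at 35.5, 42.4, 159 and 3.30 FPKM in the same order. BC1 and APLNR+ cells differed by only 1.19-fold (1.08 to 1.32), short of the threshold. ID3 rose 3.75-fold (3.48 to 4.03) in HEPs and fell 48.1-fold (37.9 to 62.0) in HPCs, where about 69 fragments stood behind its value. This was the largest fall among the 10 genes.

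ID2 (chromosome 2, 8678845 to 8684453, plus strand) was at 14.9, 65.6, 321 and 67.3 FPKM. Unlike ID1, it rose at the first step, by 4.42-fold (3.91 to 4.99), and it rose again in HEPs by 4.88-fold (4.62 to 5.16). Its fall in HPCs was 4.76-fold (4.51 to 5.03), which brought it back to the level of APLNR+ cells, from which it did not differ beyond counting error (1.03-fold, 0.955 to 1.10). ID4 (chromosome 6, 19837386 to 19840684, plus strand) was at 3.95, 11.0, 12.0 and 7.19 FPKM. It rose 2.80-fold (2.34 to 3.36) in APLNR+ cells, and its values in APLNR+ cells and HEPs could not be told apart (1.09-fold, 0.963 to 1.23). The antisense gene ID2-AS1, which overlaps ID2, had at most 2.60 FPKM. The library kit named in the labels does not mark strand, so fragments of such a pair cannot be told apart.

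**Figure D1:**
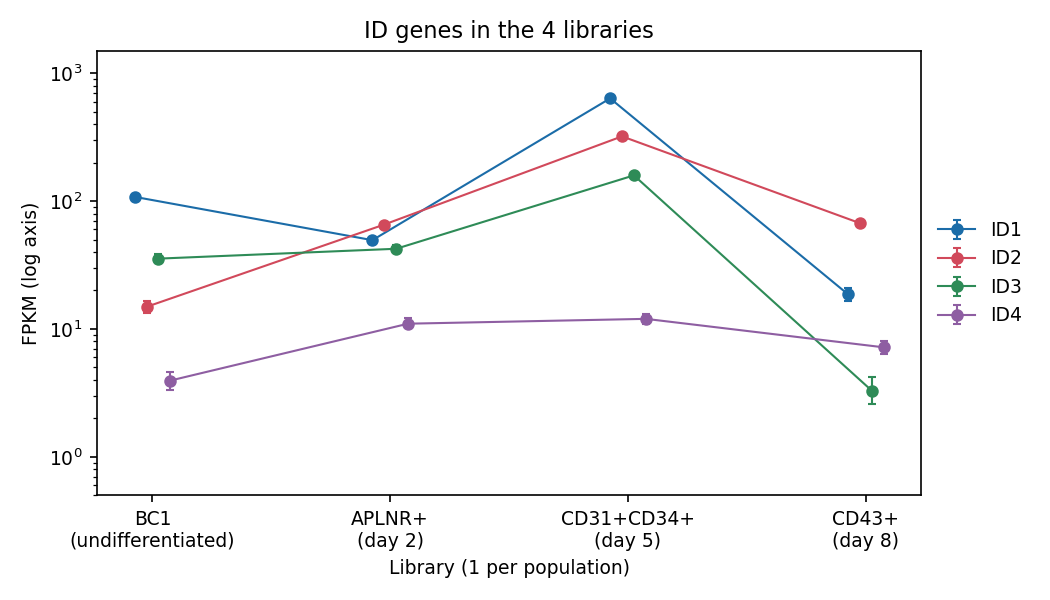
FPKM on a log axis of ID1, ID2, ID3 and ID4 in the 4 libraries, 1 per population, with error bars for the 95% interval from counting. ID1, ID2 and ID3 peak in CD31+CD34+ at 636, 321 and 159 FPKM, and ID3 is lowest in CD43+ at 3.30 FPKM.

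The makeup of the ID pool also differed between the libraries. ID1 accounted for 66.5% of the summed FPKM of the 4 ID genes in BC1, 29.3% in APLNR+ cells, 56.4% in HEPs and 19.3% in HPCs. ID2 made up 9.17%, 38.9%, 28.4% and 69.8% in the same order, so ID1 led in BC1 and HEPs and ID2 in APLNR+ cells and HPCs. The sum itself was at 162, 169, 1128 and 96.4 FPKM. It was therefore nearly equal in the first 2 populations, although ID1 fell and ID2 and ID4 rose between them.

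E proteins are the partners that ID proteins titrate, and their summed FPKM was at 367, 591, 315 and 186. TCF3, the most abundant, was at 312, 474, 242 and 133 FPKM. TCF4 rose 2.63-fold (2.43 to 2.84) in APLNR+ cells, to 88.2 FPKM, and fell 2.25-fold (2.10 to 2.42) in HEPs. TCF12 stayed between 21.7 and 33.3 FPKM. The ratio of summed ID to summed E protein FPKM was 0.442 in BC1 (95% interval 0.424 to 0.460), 0.285 in APLNR+ cells (0.276 to 0.296), 3.59 in HEPs (3.50 to 3.67) and 0.520 in HPCs (0.495 to 0.546). ID transcripts thus outnumbered E protein transcripts in the HEP library and in none of the other 3. Without the most abundant ID gene of each library the ratio was 0.148, 0.174, 1.56 and 0.157, with its highest value again in HEPs. The gene left out was ID1 in BC1 and HEPs and ID2 in APLNR+ cells and HPCs. With ID2 left out of both, APLNR+ cells were above HPCs and not below them. The values of APLNR+ cells and BC1 come from unlike sums, so their order cannot be read from them.

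Tissue-specific helix-loop-helix factors, which form dimers with E proteins, changed more widely. Of 9 such genes that passed the filter of 1 FPKM, 6 rose and none fell in APLNR+ cells, and 2 rose and 4 fell in HEPs. Of all genes that passed the filter, 9.15% rose and 9.32% fell in APLNR+ cells, and 13.0% rose and 11.4% fell in HEPs. HAND1, MESP1 and MESP2 reached 357, 96.8 and 64.7 FPKM in APLNR+ cells and were at 5.57, 1.05 and 2.72 FPKM in HEPs. TAL1, which drives blood and hemogenic fate, was at 0.0608 FPKM in APLNR+ cells, 71.2 FPKM in HEPs and 184 FPKM in HPCs. LYL1, its close relative, was at 7.16, 102 and 231 FPKM in these 3 populations. The summed ID level was thus highest in the library in which TAL1 first rose, and in HPCs TAL1 was 2.58-fold higher (2.52 to 2.66) while ID1 and ID3 had fallen.

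**Figure D2:**
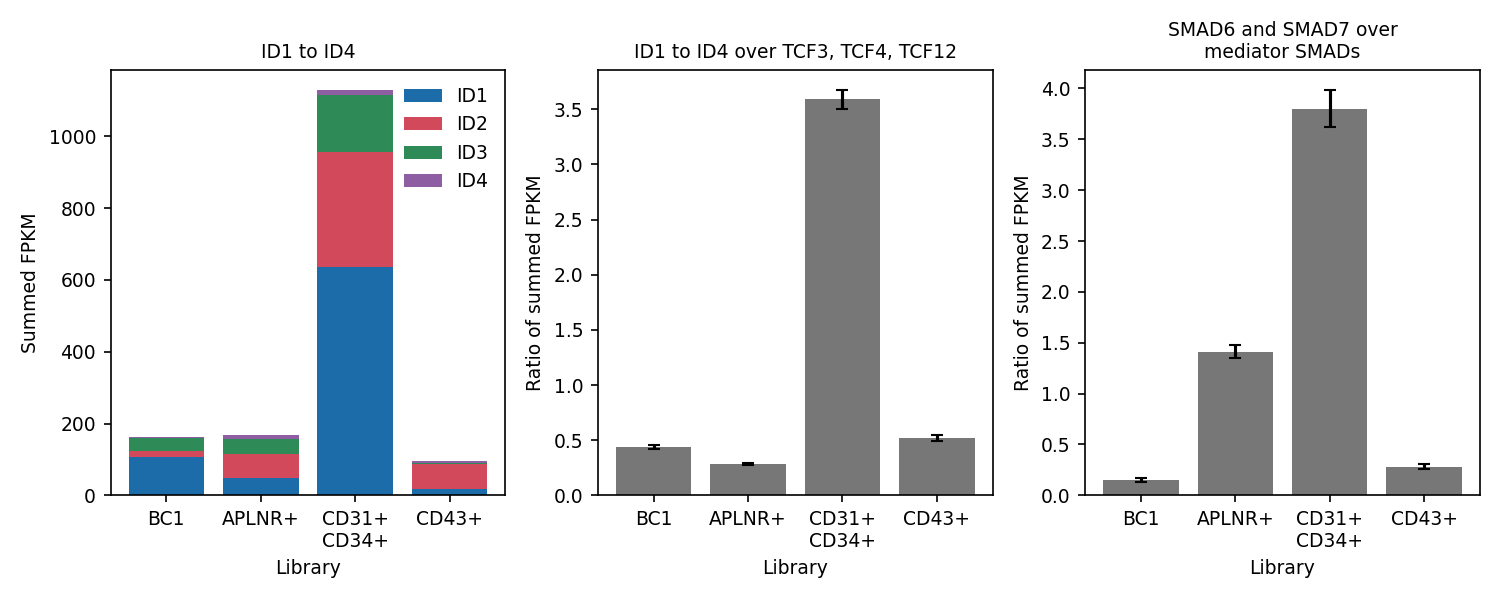
Summed FPKM of ID1 to ID4 by library, stacked by gene and without error bars (left), the ratio of that sum to the summed FPKM of TCF3, TCF4 and TCF12 (middle), and the ratio of SMAD6 and SMAD7 to the 6 mediator SMAD genes (right), both ratios with error bars for the 95% interval from counting. Both ratios are highest in CD31+CD34+, at 3.59 and 3.80.

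Among the inhibitors, SMAD6 had the largest rise, and SMAD7 did not follow its further rise in HEPs. SMAD6 (chromosome 15, 66702228 to 66782848, plus strand) had 3.21 FPKM in undifferentiated BC1 and 206 FPKM in APLNR+ cells, against 486 FPKM in HEPs and 24.2 FPKM in HPCs. Its rise in APLNR+ cells was 64.2-fold (53.8 to 77.2), with 29 of 17137 genes rising more on the log2 scale. It rose a further 2.36-fold (2.30 to 2.42) in HEPs, where it held rank 156 by FPKM, and fell 20.1-fold (18.9 to 21.4) in HPCs. The level in HPCs was still 7.53-fold (6.25 to 9.14) above that of BC1.

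SMAD7 (chromosome 18, 48919853 to 48950711, minus strand) was at 13.0, 46.0, 32.2 and 1.27 FPKM. It rose 3.54-fold (3.07 to 4.09) in APLNR+ cells, and its highest value was there and not in HEPs, where it was 1.43-fold lower (1.30 to 1.58). From HEPs to HPCs it fell 25.3-fold (17.1 to 39.2), on about 26 fragments in HPCs, to 10.2-fold (6.79 to 16.0) below BC1. SMAD7 was 80.2% of the summed FPKM of the 2 inhibitory SMADs in BC1, and 18.2%, 6.21% and 4.99% of it in the other libraries, where SMAD6 made up the rest.

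The mediator SMADs summed to 107, 178, 137 and 90.4 FPKM, a narrower range than that of the inhibitory SMADs at 16.2, 252, 518 and 25.5 FPKM. Of the 6 genes, SMAD9, SMAD3 and SMAD2 rose in APLNR+ cells, to 6.58, 45.7 and 64.5 FPKM, and none fell. SMAD9 and SMAD3 then fell in HEPs, to 2.48 and 20.6 FPKM, and SMAD5 fell 2.58-fold (2.07 to 3.25) in HPCs, to 10.4 FPKM. SMAD1 stayed between 5.42 and 9.20 FPKM, and SMAD4, the common partner, between 30.4 and 46.7 FPKM. The ratio of SMAD6 and SMAD7 to the summed mediator SMADs was 0.151 in BC1 (0.134 to 0.171), 1.41 in APLNR+ cells (1.35 to 1.48), 3.80 in HEPs (3.62 to 3.98) and 0.282 in HPCs (0.259 to 0.307). Without the more abundant inhibitory SMAD of each library these ratios were 0.0300, 0.258, 0.236 and 0.0140, so the value in HEPs and the order of HEPs and APLNR+ cells rested on SMAD6.

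BAMBI was higher in HPCs than in HEPs, unlike the other 9 members. The gene (chromosome 10, 28677342 to 28682939, plus strand) was at 14.3, 145, 87.5 and 101 FPKM. It rose 10.1-fold (9.21 to 11.2) in APLNR+ cells, and its 3 values after BC1 lay within 1.66-fold of each other. HPCs were 1.15-fold (1.10 to 1.21) above HEPs, which is beyond counting error but below the threshold. In HPCs BAMBI was thus the most abundant of the 10 genes, ahead of ID2, with all others at most at 24.2 FPKM.

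PMEPA1, which restrains SMAD2 and SMAD3, peaked in APLNR+ cells and fell at both later steps. It lies on chromosome 20 from 57648392 to 57711536 on the minus strand and was at 15.9, 53.6, 9.20 and 2.01 FPKM. The rise was 3.37-fold (3.17 to 3.58) and the falls were 5.83-fold (5.43 to 6.26) and 4.57-fold (3.90 to 5.39). HEPs were already below BC1. NKILA, a noncoding gene that overlaps the PMEPA1 locus on the other strand, was at no more than 1.68 FPKM.

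SKIL and TGIF1, the nuclear corepressors, were highest in BC1 and lower in every later population. SKIL (chromosome 3, 170357678 to 170396835, plus strand) was at 39.7, 22.7, 9.40 and 2.46 FPKM. TGIF1 (chromosome 18, 3411608 to 3459978, plus strand) was at 126, 72.3, 23.4 and 12.8 FPKM. Their first steps, 1.75-fold lower (1.63 to 1.88) for SKIL and 1.74-fold lower (1.62 to 1.87) for TGIF1, did not reach the threshold. Both fell in HEPs, SKIL 2.42-fold (2.18 to 2.68) and TGIF1 3.09-fold (2.77 to 3.45). Over the whole course SKIL fell 16.1-fold (13.5 to 19.4) and TGIF1 9.88-fold (8.60 to 11.4). Of all genes kept, 9.11% were lower in each later library.

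Of 8 genes of related corepressors, ubiquitin ligases and a SMAD phosphatase, PPM1A was also lower in each later library, with 11.7 FPKM in APLNR+ cells, 10.5 FPKM in HEPs and 9.39 FPKM in HPCs, without reaching the threshold at any step. Of these 8, none rose and 1 fell in APLNR+ cells, 1 rose and none fell in HEPs, and 1 rose and 2 fell in HPCs. Of all genes kept, 9.15%, 13.0% and 7.63% rose at these steps in turn, and 9.32%, 11.4% and 13.5% fell. SKI, the relative of SKIL, was at 195, 284, 415 and 299 FPKM, and TGIF2, the relative of TGIF1, was at 38.7, 34.7, 21.4 and 30.1 FPKM. SMURF2, a ligase that SMAD7 brings to receptors, rose 2.95-fold (2.54 to 3.44) in HEPs, to 15.5 FPKM, and fell to 4.19 FPKM in HPCs.

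**Figure D3:**
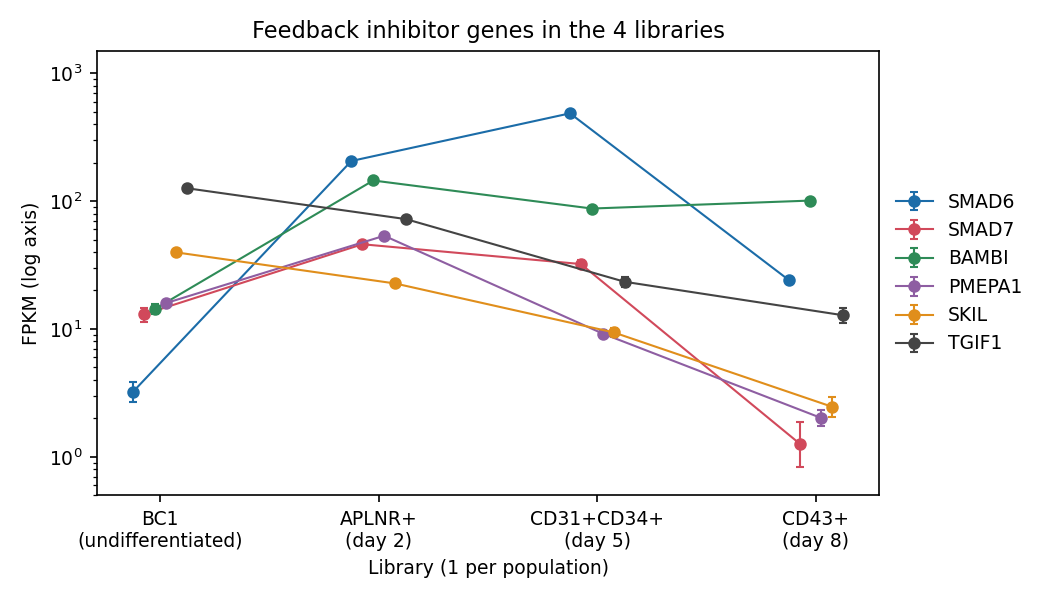
FPKM on a log axis of SMAD6, SMAD7, BAMBI, PMEPA1, SKIL and TGIF1 in the 4 libraries, 1 per population, with error bars for the 95% interval from counting. SMAD6 peaks in CD31+CD34+ at 486 FPKM, SMAD7, BAMBI and PMEPA1 peak in APLNR+, and SKIL and TGIF1 decrease from BC1 onwards.

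The steps differed in the direction in which members moved. From BC1 to APLNR+, 6 of the 10 rose (ID2, ID4, SMAD6, SMAD7, BAMBI and PMEPA1) and 1 fell (ID1), where 9.15% of all genes kept rose and 9.32% fell. The median difference was 1.49 on the log2 scale for the members and 0.00 for all genes. From APLNR+ to CD31+CD34+, 4 rose (ID1, ID2, ID3 and SMAD6) and 3 fell (PMEPA1, SKIL and TGIF1), against 13.0% and 11.4% of all genes, and the medians were -0.20 and 0.01.

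From CD31+CD34+ to CD43+, 7 of the 10 fell and none rose, while 13.5% of all genes fell and 7.63% rose. The members had a median difference of -2.00, and all genes one of -0.08. Those that did not fall were ID4, BAMBI and TGIF1. ID1, ID2, ID3 and SMAD6 were the members that rose in HEPs and then fell in HPCs, a course that 4.97% of all genes had. Because consecutive steps share a library, a high value in HEPs enters both of them. Over the whole course from BC1 to CD43+, 3 members rose (ID2, SMAD6 and BAMBI) and 6 fell, against 15.2% and 18.9% of all genes.

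Of the 10 genes, 5 were highest in HEPs, 3 in APLNR+ cells and 2 in BC1, and none was highest in HPCs. Of all genes kept, 25.5% were highest in HEPs, 22.7% in APLNR+ cells, 27.7% in BC1 and 24.0% in HPCs. The lowest value was in HPCs for 6 members and in BC1 for 4, against 31.4% and 27.8% of all genes. Of the 30 pairs of libraries next to each other in a gene's order of levels, the interval included no difference in the 2 named above, for ID2 and ID4. All 10 members passed the filter, and their lowest value was 1.27 FPKM.

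**Figure D4:**
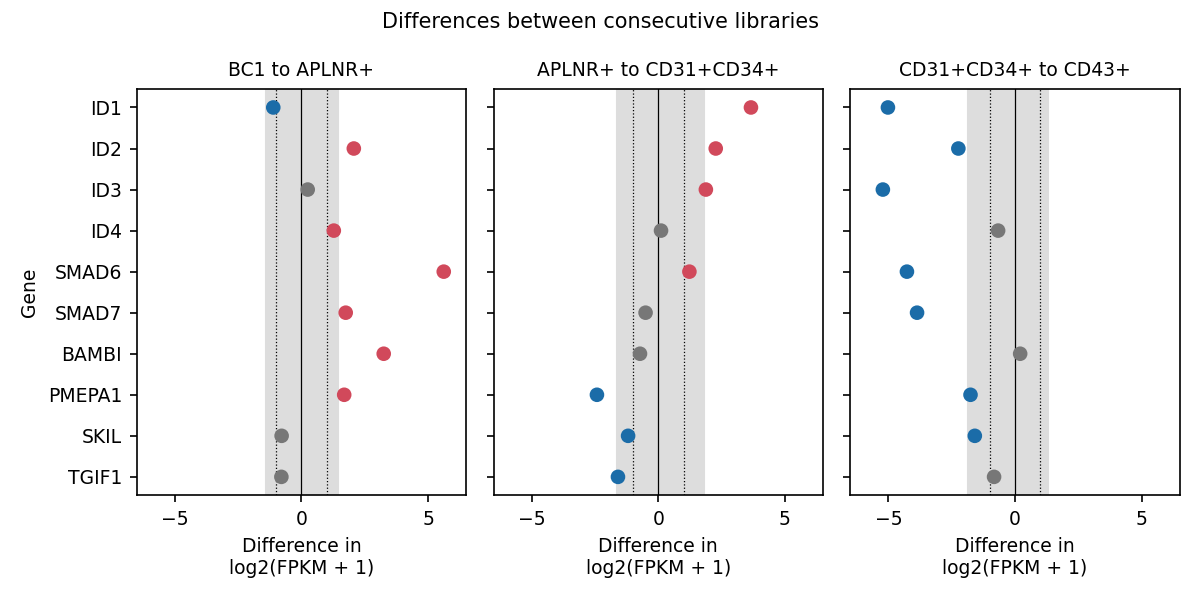
Difference in log2(FPKM + 1) of the 10 genes between consecutive libraries, with red for at least 1 higher, blue for at least 1 lower and grey for neither; dotted lines mark the threshold of 1 and the grey band runs from percentile 5 to 95 of all 17137 genes. At the last step ID1, ID2, ID3, SMAD6 and SMAD7 lie below the band, which ends at -1.87.

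The library of HPCs also differed in the cells it stood for. The 6 endothelial markers fixed for this work summed to 827 FPKM in HEPs and 337 FPKM in HPCs, with all 6 at 1 FPKM or more in both. CDH5 (VE-cadherin) went from 224 to 9.38 FPKM, while PECAM1 went from 93.1 to 126 FPKM. The 6 hematopoietic markers went from 109 to 6568 FPKM, most of it HBE1, an embryonic globin gene, at 5271 FPKM. The 6 smooth muscle and pericyte markers went from 523 to 40.1 FPKM, of which RGS5 made 393 and 3.58 FPKM, and the defining gene MYH11 was at most at 0.203 FPKM in any library. The 6 pluripotency markers summed to 2908, 808, 148 and 117 FPKM over the 4 libraries, the direction in which SKIL and TGIF1 also went, and the 7 mesoderm markers to 38.8, 1950, 789 and 67.6 FPKM. The 6 endoderm markers summed to 208, 511, 79.6 and 60.1 FPKM, most of it APOA2 at 193, 470, 65.3 and 58.8 FPKM. The 6 neural and surface ectoderm markers summed to 20.9, 82.9, 1.05 and 0.0607 FPKM. Of these, OTX2 made 20.5 FPKM in BC1 and 82.8 FPKM in APLNR+ cells, and each of the others was at most at 0.302 FPKM. The part of these differences in the members' values was not tested. Of 8 reference genes, ACTB fell 2.17-fold in HEPs, and ACTB and B2M rose 2.93-fold and 2.59-fold in HPCs, while GAPDH stayed between 2647 and 3325 FPKM.

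The other genes were taken from 9 lists with 80 genes, 69 of which passed the filter and are called pathway genes below. Besides genes of the signaling pathway, the lists held the E proteins and their tissue-specific partners described above. From BC1 to APLNR+, 28 rose (40.6%), 6 of them such partners and 1 an E protein. At that step 6 fell (8.70%), none of them a partner or an E protein. In HEPs 13 rose (18.8%) and 21 fell (30.4%), and in HPCs 5 rose (7.25%) and 27 fell (39.1%). The median differences were 0.60, -0.32 and -0.52 in turn. Of all genes kept, 9.15% rose and 9.32% fell from BC1 to APLNR+, 13.0% and 11.4% did in HEPs, and 7.63% and 13.5% in HPCs. The counts of the single lists below are to be read beside these shares.

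Of 8 ligand genes that passed the filter, 3 rose and 1 fell in APLNR+ cells, 2 rose and 5 fell in HEPs, and none rose and 2 fell in HPCs. BMP2 and BMP4 rose 314-fold (244 to 412) and 167-fold (123 to 232) in APLNR+ cells, to 287 and 305 FPKM. They fell in HEPs to 1.25 and 12.0 FPKM, so ID1 and ID3 were at their highest in a library in which these ligand genes were low. BMP6 was the BMP gene that rose in HEPs, from 0.148 to 7.30 FPKM, and it was back at 0.278 FPKM in HPCs. TGFB1 rose at the first 2 steps, from 4.59 to 102 and 357 FPKM, and was at 585 FPKM in HPCs. NODAL fell 4.08-fold (2.77 to 6.17) in APLNR+ cells, to 1.41 FPKM.

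Of 10 receptor genes that passed the filter, 3 rose and 1 fell in APLNR+ cells, 3 rose and 1 fell in HEPs, and none rose and 4 fell in HPCs. ACVRL1, which encodes the endothelial receptor ALK1 for BMP9 and BMP10, was at 0.391, 2.80, 81.2 and 1.87 FPKM. It rose in HEPs (interval of the fold 21.4 to 40.2) and fell 43.4-fold (29.9 to 65.3) in HPCs, steps at which ID1, ID2, ID3 and SMAD6 also rose and fell. It had already risen from BC1 to APLNR+ cells, as ID2 and SMAD6 did, whereas ID1 fell there and ID3 did not reach the threshold. BMPR1A, the BMP receptor of pluripotent cells, fell 2.66-fold (2.50 to 2.82) in APLNR+ cells, from 34.2 to 12.9 FPKM, and BMPR2 rose 4.33-fold (3.93 to 4.79), to 11.5 FPKM. TGFBR2 rose 9.21-fold (7.47 to 11.5) in HEPs, to 9.64 FPKM.

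**Figure D5:**
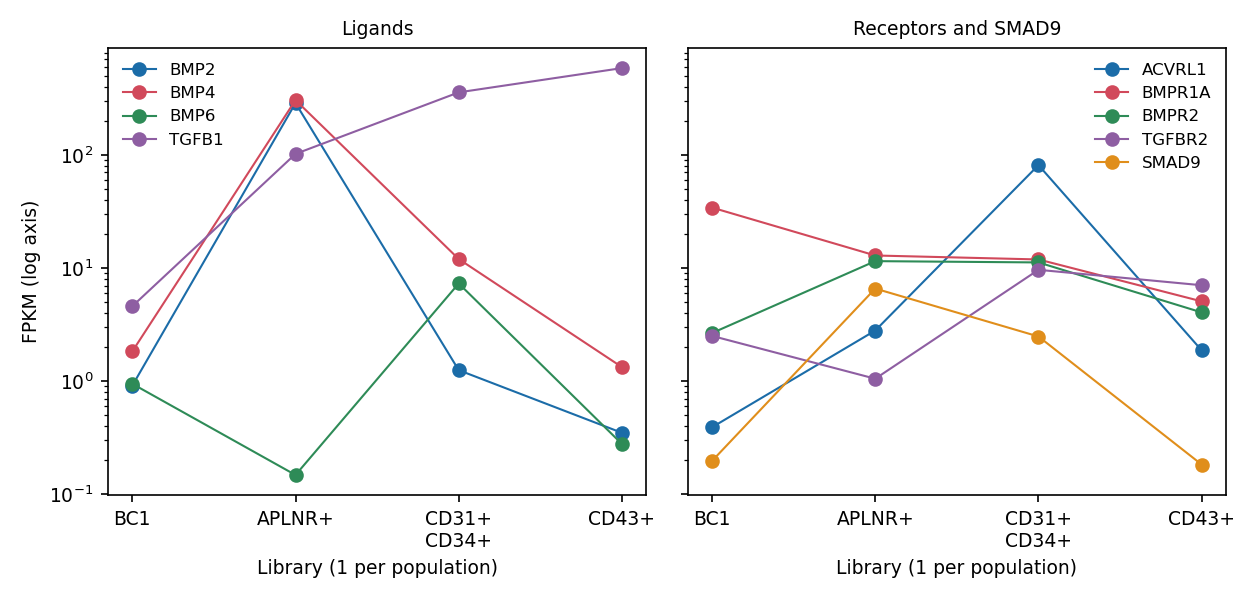
FPKM on a log axis of 4 ligand genes (left) and of 4 receptor genes and SMAD9 (right) in the 4 libraries, 1 per population, without error bars. BMP2 and BMP4 peak in APLNR+ at 287 and 305 FPKM, ACVRL1 peaks in CD31+CD34+ at 81.2 FPKM, and TGFB1 is highest in CD43+ at 585 FPKM.

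Other genes that BMP signaling induces resembled the members only in part. Of 8 that passed the filter, 5 rose and none fell in APLNR+ cells, 1 rose and 2 fell in HEPs, and 5 fell and none rose in HPCs. MSX2, a homeobox gene, was at 0.307, 31.2, 6.98 and 0.765 FPKM, highest in APLNR+ cells as SMAD7, BAMBI and PMEPA1 were. GATA3 was at 0.431, 30.0, 40.1 and 2.80 FPKM, the same order of libraries as SMAD6. HEY1, which also answers to Notch, rose 5.07-fold (3.66 to 7.16) in HEPs, to 6.70 FPKM, and fell 11.8-fold (7.38 to 20.1) in HPCs. MSX1 had 24.0 FPKM in APLNR+ cells, 22.1 FPKM in HEPs and 25.3 FPKM in HPCs and, like BAMBI, did not fall at the last step.

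Of 10 other targets of activin and TGF-beta, 3 rose and 2 fell in APLNR+ cells, 3 rose and 4 fell in HEPs, and 2 rose and 5 fell in HPCs. LEFTY1, a Nodal inhibitor, fell 4.20-fold (3.24 to 5.50) in APLNR+ cells, from 17.9 to 4.27 FPKM, at the step at which PMEPA1 and SMAD7 rose. CTGF was highest in BC1, at 29.3 FPKM, and was at 7.40, 4.67 and 1.62 FPKM afterwards.

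Secreted BMP antagonists, which bind ligands outside the cell, were compared with the intracellular inhibitors. Of 7 that passed the filter, 4 rose and 1 fell in APLNR+ cells, 1 rose and 2 fell in HEPs, and none rose and 3 fell in HPCs. NOG and FST reached 29.1 and 44.8 FPKM in APLNR+ cells and fell 32.6-fold (23.2 to 47.4) and 37.7-fold (27.2 to 53.7) in HEPs. BMPER stayed high, at 144 and 136 FPKM, and fell to 4.61 FPKM in HPCs, so it was closer to SMAD6 than the other antagonists were.

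The genes whose course was most like that of each member were sought among 8931 protein-coding genes with at least 10 FPKM in some library. Likeness was the largest difference between the log2(FPKM + 1) values of the pair over the 4 libraries, each gene first centred on its own mean, so that a small number stands for a like course. For ID1 these were PDE2A (0.32), SVIL (0.35) and BAIAP3 (0.50), for ID2 they were IER5L (0.10), ZEB1 (0.19) and EHD2 (0.27), and for ID3 they were RAMP2 (0.46), LOXL2 (0.51) and CACNG7 (0.57). ID1 and ID3 thus had no shared gene among their closest. SMAD6 had the least close neighbours, with COLEC12 at 0.82, HAPLN1 at 1.02 and BMPER at 1.03. For SMAD7 they were EFNA2 (0.27), FEZ1 (0.28) and SEMA3F (0.35), and for BAMBI they were CA2 (0.33), KIFC3 (0.35) and MGST2 (0.36). For PMEPA1 they were HSPB8 (0.14), GNAL (0.21) and MEX3D (0.24). SKIL was closest to BAIAP2L1 (0.12), DSG2 (0.19) and DPYSL4 (0.21), and TGIF1 to RRAS2 (0.14) and SLC39A14 (0.16). ID4 varied too little to be compared.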

How the data were processed

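RNA of 4 populations was sequenced, with 1 library each. The authors deposited 1 table of FPKM values per gene, and their processing notes name BWA, Bowtie, RSEM and hg19 without roles or versions. The gene loci in the table match GENCODE release 29 on GRCh38, which was used for positions, written from base 1. The table has 58365 rows, and rows of the 90 identifiers that occur more than 1 time were summed. Genes that reached 1 FPKM in some library were kept, 17137 in all.

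Differences were computed on log2(FPKM + 1), which understates the change of low genes, and called at 1 or more. Depth was recovered from the steps of low values, of which 84.2% to 85.7% came out whole within 0.1 fragments, on transcripts of at least 1000 bases. Fragments behind each value are therefore approximate. Fold intervals are exact Clopper-Pearson intervals on these fragments, and ratio intervals use a normal approximation on the log scale. The steps were tested on simulated data. The alternatives were another pseudocount, threshold, filter, scaling, transcript length and row choice, protein-coding genes alone, and sums without their most abundant gene.

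The members and lists were chosen with earlier results of these data known. Named genes were all members, up to 3 called genes per list and direction with at least 5 FPKM, and the 3 genes of most alike course per member. Some genes that this rule names are not reported here. Genes named beyond this rule (SMAD1, SMAD4, SKI, TGIF2, TCF3, TCF12, MYH11 and GAPDH among them) were chosen after their values were seen. Protein sequences were not analysed here. Python 3.11.15, pandas 2.3.3, numpy 2.4.6 and scipy 1.17.1 were used.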

Additional observations from a re-analysis of the deposited data

How the results depend on the processing

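No paired analysis was possible because each population had 1 library, and for the same reason no library could be left out. No difference of a member between libraries changed direction under the alternative pseudocount, scalings or row choice. With a threshold of 2, members rising and falling numbered 3 and 0 from BC1 to APLNR+ (2.68% and 2.29% of all genes) and 2 and 1 from APLNR+ cells to HEPs (4.08% and 3.15%). At that threshold 1 pathway gene fell from BC1 to APLNR+, 7 rose from APLNR+ cells to HEPs, 1 rose and 13 fell between HEPs and HPCs, and 7 rose and 7 fell from BC1 to CD43+. All genes rising and falling then numbered 460 and 393, 699 and 539, 391 and 741, and 921 and 1160 for these comparisons. With a pseudocount of 0.1, falling pathway genes numbered 10 from BC1 to APLNR+ and 20 from BC1 to CD43+, and falling genes overall 2575 from BC1 to APLNR+ and 3488 from CD31+CD34+ to CD43+. With a filter of 5 FPKM, 1019 genes fell from BC1 to APLNR+. Without the most abundant gene of each sum, the ID ratio was 0.148, 0.174, 1.56 and 0.157 and the inhibitory SMAD ratio 0.0300, 0.258, 0.236 and 0.0140. The order of APLNR+ cells and HEPs thus turned for the SMAD ratio, with SMAD6 left out of both. That of APLNR+ cells and HPCs turned for the ID ratio, with ID2 left out of both. BC1 and APLNR+ cells had different genes left out, so their order was not compared. Of 40 member changes, 9 shifted by more than the reach of their counting interval with the pseudocount of 0.1. With upper quartile scaling 6 did, without mitochondrial genes 4 and with the highest row 0. Such a shift is measured from the main log2 change and need not put a value outside the interval of its fold. All 40 fold intervals stayed on the same side of no change with the longest transcript. These scalings shifted the median of all genes by at most 0.08 on the log2 scale. Counts of fragments limit SMAD7 and ID3 in HPCs most, at about 26 and 69 fragments.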

Other observations

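Genes of the pathway differed in their course at the last step, at which no member rose. AMHR2, the receptor of anti-Müllerian hormone, rose 7.11-fold (5.74 to 8.90) from APLNR+ cells to HEPs, to 23.3 FPKM. It was at 36.2 FPKM in HPCs, short of the threshold for a rise. The members other than ID2 and BAMBI were at most at 24.2 FPKM there. NEDD4L, a ubiquitin ligase, fell 2.57-fold (2.37 to 2.80) from BC1 to APLNR+ cells and rose 2.78-fold from HEPs to HPCs, to 37.0 FPKM. WWP1, a ligase of the same family, fell 2.33-fold (2.10 to 2.59) at the last step.

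Among the members, SKIL and TGIF1 had the most alike course, with centred log2(FPKM + 1) values that differed by at most 0.39 in any library. SMAD6 and TGIF1 were the least alike, at 5.36. These are descriptions over 4 libraries, with no replicate behind them. AC013564.1, a noncoding gene within an intron of SMAD6 on the same strand, was listed at 0 in BC1 and was at 1.89, 2.67 and 0.109 FPKM in the later libraries, the order of SMAD6 in APLNR+ cells, HEPs and HPCs. Because of this position, its fragments cannot be told apart from those of unspliced SMAD6 RNA.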
